A study of Mus musculus with 8 samples.

Results

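Cytochrome P450 genes other than Cyp11a1, Cyp17a1, Cyp26b1 and Cyp51 were compared between testes of wild-type (VRK1+/+) and Vrk1 mutant (VRK1-/-) mice. Members were taken by name: every probe whose gene name in the array files began with Cyp followed by a number, which gave 98 of the 41174 distinct probes and 67 genes. Total RNA of whole testicular cells was hybridised to 4 single-colour Agilent arrays of each genotype, described as biological replicates, and the naming rule used no measured value. How old the mice were, their strain and how Vrk1 was disrupted are not given in the labels used here, nor do they tie an array to an animal. Mutants were all homozygous, and neither group received a treatment that the labels name. Vrk1 encodes a nuclear serine/threonine kinase, and its probe read 4.78-fold lower in the mutant (log2 difference -2.26 ± 0.15 SE, limma adjusted p = 0.000156) while staying well above background on every mutant array. Whether that probe lies in the disrupted stretch is not given in the labels.

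P450 enzymes are haem proteins that insert an oxygen atom into lipids, steroids, vitamins and foreign compounds. Those of the endoplasmic reticulum take electrons from the reductase Por, and the mitochondrial ones take them from ferredoxin and its reductase Fdxr. In the testis, the best-known members make androgens in Leydig cells. The genes described here instead break down retinoic acid, hydroxylate cholesterol and fatty acids, act on vitamin D or clear drugs, and many are best known from the liver.

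Levels below are log2 of a probe's signal relative to the 75th percentile of its array, raised to a common floor of -6.12, and every difference is mutant minus wild type on that log2 scale. Levels of different probes are not compared with each other. The arrays of a genotype shared 1 slide and 1 scan, and in every comparison below the effect of the slide and that of genotype cannot be told apart. Between 73.2% and 77.5% of features were well above background on the wild-type arrays and between 83.3% and 86.5% on the mutant arrays, and no feature was saturated. Of the summed markers of testis cell types, those of Sertoli cells ran from 60.5 to 92.5 times the 75th percentile in wild type and from 131 to 199 in the mutant, and 9 of 10 of them rose. Leydig markers ran from 75.9 to 134 and from 146 to 245 (4 of 7 tested rose), and macrophage markers from 1.54 to 2.04 and from 2.04 to 3.97 (5 of 5 rose). Spermatocyte markers ran from 435 to 480 and from 311 to 396 (4 of 6 fell). Spermatid markers overlapped, at 1510 to 2070 and 1240 to 1740 (1 of 7 fell), as did those of endothelium, at 0.55 to 0.88 and 0.865 to 1.24 (2 of 5 rose). Of the peritubular myoid and adipocyte markers, 5 each, none passed in limma's test. Adipocyte markers were uneven within a genotype, with Fabp4 from -3.13 to 1.20 in wild type and from -2.69 to 0.17 in the mutant. In RNA of whole testis, fewer cells of a type and less RNA per cell cannot be told apart. The part of these markers in the P450 differences was not tested.

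The probes that carried the bile acid, cholesterol, leukotriene and aldosterone results below are shown because each lies across an exon junction, its mm7 coordinates spanning more genome than its 60 bases, and has a reading frame without a stop. The last, for the fatty acid epoxygenase relative Cyp2j13, is shown because the capitals encode the P450 haem-binding signature, a phenylalanine, a glycine, an arginine and the cysteine that holds the haem iron, at their family spacing; it was well above background on 3 mutant arrays only and did not enter the test. That pattern was found in a stop-free frame of 3 of the 41174 probes, and this was the only P450 among them. In mm7 the probes lie at chr4:6195632-6196238 (Cyp7a1, minus strand), chr12:105879275-105881673 (Cyp46a1, plus strand), chr17:31127900-31128047 (Cyp4f13, minus strand), chr15:74931650-74931975 (Cyp11b2, minus strand) and chr4:95438221-95449204 (Cyp2j13, minus strand).
Cyp7a1: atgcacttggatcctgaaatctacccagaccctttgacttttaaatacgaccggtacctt
Cyp46a1: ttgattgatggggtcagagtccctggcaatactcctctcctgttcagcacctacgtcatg
Cyp4f13: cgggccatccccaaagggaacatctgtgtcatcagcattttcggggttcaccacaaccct
Cyp11b2: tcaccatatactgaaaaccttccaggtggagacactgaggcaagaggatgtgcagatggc
Cyp2j13: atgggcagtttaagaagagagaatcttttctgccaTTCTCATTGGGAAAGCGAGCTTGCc

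Of the 67 genes, 58 were tested, having a probe that stood well above background on 4 or more arrays. In the mutant 16 of them rose, against 22.2% of all 23962 genes tested, and 3 fell, against 13.1% of all genes. These are 27.6% and 5.17% of the P450 genes. The remaining 39 did not pass limma's test at a Benjamini-Hochberg adjusted p of 0.05. Of the 16 rises, 11 were well above background on all wild-type arrays and 5 were not. Those 5 were well above background on all 4 mutant arrays, which alone met the filter, so their rises are not independent of it. With the filter at all 8 arrays 48 P450 genes were tested. Of these 12 rose and 3 fell, against 19.7% and 15.7% of all genes. Of the 58 genes, 47 were well above background on all wild-type arrays and 57 on all mutant arrays. The median difference was 0.01 over the 58 genes and 0.04 over all genes. Both groups of arrays were apart, without overlap, for 15 P450 genes that were higher and 5 that were lower, where this held for 21.9% and 15.2% of all genes. When each array was left out in turn, 10 of the rises and 2 of the falls passed in each of the 8 fits. Without mutant replicate 1 there were 10 rises and 2 falls (16.3% and 6.85% of all genes), and without wild-type replicate 4 there were 16 rises and 7 falls (22.5% and 15.6%).

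The balance of rises and falls moved with the scaling. With median scaling 11 P450 genes rose and 15 fell, against 14.0% and 28.4% of all genes. With quantile normalization 8 rose and 9 fell (14.5% and 10.9% of all genes), with cyclic loess 8 and 8 (16.4% and 9.05%), and with spike-in scaling 14 and 8 (15.3% and 20.2%). The median of all genes stood at -0.18 with median scaling, -0.12 with spike-in scaling and -0.22 with normexp background correction, and the P450 median at -0.21, -0.14 and -0.26. Normexp adds an offset of 50 to every signal before the array's scaling, which compresses differences of dim probes. The 75th percentile of the processed signal was 680 to 790 on wild-type arrays and 928 to 1124 on mutant arrays. Normexp values were scaled by the percentile of the normexp signal, which is not given here. How far the offset moved the differences of dim probes was not tested. Under normexp 2 P450 genes rose and 7 fell, against 7.84% and 11.2% of all genes. All 16 rises kept a positive difference under median, quantile and cyclic loess scaling, and 11, 8 and 8 of them still passed. Under normexp 10 of 16 stayed positive, and Cyp2s1 and Cyp27a1 still passed. The 3 falls were lower and passed under each of these 4.

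**Figure D1:**
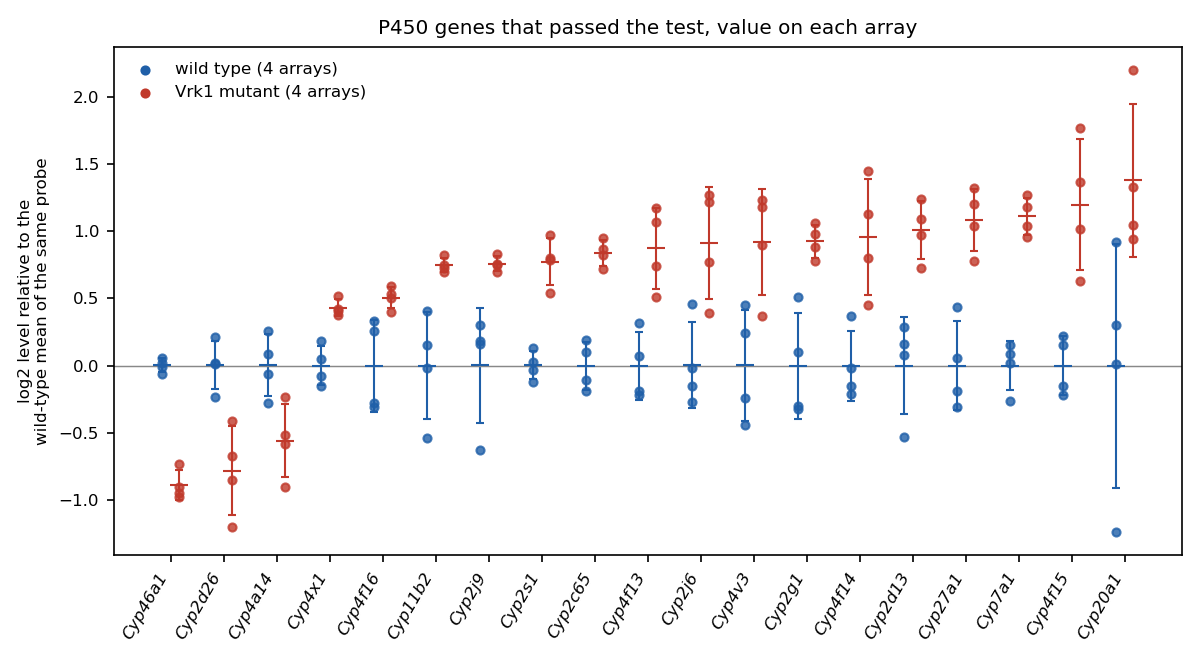
Level of each P450 gene that passed the test on each array, as log2 relative to the wild-type mean of the same probe (vertical axis), ordered by difference. Points are arrays (blue, 4 wild type; red, 4 mutant), and dashes with bars are means ± SD; levels of different genes are not comparable, and 16 genes lie above and 3 below the wild-type mean.

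Genes of bile acid and oxysterol synthesis, which turn cholesterol into bile acids or oxygenated sterols, gave the rise and the fall with the smallest p among the P450 genes. Of the 6 on the array 5 were tested, of which 2 rose and 1 fell, where 22.2% and 13.1% of all genes did. Their median was 0.60, and that of all genes was 0.04. Cyp7a1, the rate-limiting enzyme of the classical bile acid pathway in liver, read -3.88, -3.82, -3.95 and -4.23 on the wild-type arrays and -2.93, -2.70, -3.01 and -2.79 on the mutant arrays. Every mutant array lay above every wild-type array. The difference was 1.11 ± 0.14 (SE, n = 4 each, limma adjusted p = 0.00124), a 2.16-fold rise. Its second probe differed by 0.72 ± 0.36 (adjusted p = 0.143 in the limma fit over all probes), with 1 wild-type array at the floor. Under normexp the Cyp7a1 difference was 0.16 (adjusted p = 0.516).

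Cyp27a1, the mitochondrial sterol hydroxylase of the alternative bile acid pathway, read -3.05, -3.17, -2.80 and -2.42 in wild type and -1.66, -2.08, -1.82 and -1.54 in the mutant. The groups were apart, and the rise was 1.09 ± 0.19 (SE, adjusted p = 0.00448, limma), or 2.12-fold. It was 0.50 under normexp (adjusted p = 0.0451, limma), still past the threshold. Cyp46a1, the cholesterol hydroxylase known for clearing cholesterol from the brain, fell. Its wild-type values were -0.94, -0.90, -0.97 and -1.02 and its mutant values -1.94, -1.69, -1.86 and -1.91, so both genotypes varied little and did not overlap. The difference was -0.89 ± 0.12 (SE, adjusted p = 0.0016, limma), a 1.85-fold fall, and it was -0.77 under normexp (adjusted p = 0.00643). Its probe lies on chromosome 12 in mm7, 2.32 Mb from the probe of the disrupted gene Vrk1. Cyp7b1, an oxysterol hydroxylase, differed by 0.60 ± 0.30 (adjusted p = 0.133) and overlapped. Cyp39a1, another oxysterol hydroxylase, differed by -0.30 ± 0.21 (adjusted p = 0.29). Cyp8b1, the sterol hydroxylase that sets the type of bile acid, stood above background by that measure on none of the 8 arrays. Of the liver markers Ttr was at the floor on all 8 arrays, Alb read from -5.73 to -4.58 and Apoa1 from -4.54 to -4.05. The 5 measured liver markers summed to 2.35 to 4.2 times the 75th percentile in wild type and 1.9 to 3.24 in the mutant. That sum came mostly from markers other than Alb, Apoa1 and Ttr. Of the 4 tested, none rose and 1 fell.

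The largest role group was that of fatty acid and eicosanoid enzymes, with 28 genes, of which 24 were tested. Here 9 rose and 1 fell, where 22.2% and 13.1% of all genes did, and the median was 0.16. Among them the Cyp4f genes, which oxidise the end of fatty acid and leukotriene chains, stood in a cluster on chromosome 17 whose probes span 0.385 Mb in mm7. All 4 Cyp4f genes of the cluster passed and rose. Cyp4f15 read -3.74, -3.37, -3.44 and -3.81 in wild type and -1.82, -2.96, -2.22 and -2.57 in the mutant. Cyp4f14 read -1.72, -2.24, -2.30 and -2.11 in wild type and -0.64, -1.64, -0.96 and -1.29 in the mutant. Cyp4f13 read -1.50, -1.75, -2.04 and -2.01 in wild type and -0.65, -1.31, -1.08 and -0.75 in the mutant. In these 3 genes the second mutant array was the lowest of its group, and no mutant array fell within the wild-type range. The rises were 1.20 ± 0.24 for Cyp4f15 (SE, adjusted p = 0.00664), 0.96 ± 0.23 for Cyp4f14 (adjusted p = 0.0126) and 0.88 ± 0.19 for Cyp4f13 (adjusted p = 0.00917), from limma. Cyp4f16 rose by 0.50 ± 0.18 at an adjusted p of 0.0499 (limma), and it kept its call in 1 of the 8 fits that left out an array, the one without wild-type replicate 2; the other 7 gave adjusted p from 0.0519 to 0.101. The second Cyp4f16 probe was well above background on no array. Cyp4f18, which lies on chromosome 8, differed by -0.14 ± 0.14 (adjusted p = 0.43). The difference between Cyp4f18 and the cluster was not tested. Under normexp Cyp4f13, Cyp4f14 and Cyp4f15 differed by 0.52, 0.64 and 0.32, Cyp4f16 by -0.15, and none passed.

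Promoters of the Cyp4f cluster are shown because its members moved together: each is the 250 bases before the first start that RefSeq lists in GRCm38.p6, on the gene's strand, with the CCAAT box or its reverse complement ATTGG in capitals. They lie at chr17:32947362-32947611 (Cyp4f13, minus strand), chr17:32917357-32917606 (Cyp4f14, minus strand), chr17:32685409-32685658 (Cyp4f15, plus strand) and chr17:32536307-32536556 (Cyp4f16, plus strand).
Cyp4f13: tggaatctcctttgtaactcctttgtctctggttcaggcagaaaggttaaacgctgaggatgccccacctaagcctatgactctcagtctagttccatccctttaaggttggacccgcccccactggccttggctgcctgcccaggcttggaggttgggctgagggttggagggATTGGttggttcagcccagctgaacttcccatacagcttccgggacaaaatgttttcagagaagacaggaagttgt
Cyp4f14: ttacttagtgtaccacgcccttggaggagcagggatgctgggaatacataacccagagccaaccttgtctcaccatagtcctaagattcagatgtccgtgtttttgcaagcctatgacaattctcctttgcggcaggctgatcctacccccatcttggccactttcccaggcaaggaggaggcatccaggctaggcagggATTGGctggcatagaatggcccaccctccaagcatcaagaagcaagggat
Cyp4f15: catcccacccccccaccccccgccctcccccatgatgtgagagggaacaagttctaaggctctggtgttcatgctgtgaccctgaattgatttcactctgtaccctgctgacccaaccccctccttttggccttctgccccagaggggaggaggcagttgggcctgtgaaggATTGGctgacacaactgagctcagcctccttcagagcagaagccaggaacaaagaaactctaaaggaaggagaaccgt
Cyp4f16: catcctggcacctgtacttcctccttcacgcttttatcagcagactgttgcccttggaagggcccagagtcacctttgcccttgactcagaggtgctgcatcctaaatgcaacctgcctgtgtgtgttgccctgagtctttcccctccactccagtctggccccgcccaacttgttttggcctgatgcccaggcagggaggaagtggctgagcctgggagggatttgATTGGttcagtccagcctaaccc
The motifs searched were chosen with the calls known. The CCAAT box begins 76, 50, 78 and 23 bases before the start in Cyp4f13, Cyp4f14, Cyp4f15 and Cyp4f16, and Cyp4f14 has 4 listed starts, for which the distance ran from 24 to 77. Of the 32851 RefSeq promoter windows of the same length 33.8% hold CCAAT on either strand. Of the 19 P450 genes that passed, 13 had an entry and 8 held it, or 61.5%, against 9 of 29 P450 genes that did not pass, or 31.0%. The 8 include the 4 Cyp4f genes of the cluster, which are relatives and not independent, and Cyp46a1 and Cyp2d26, which fell. For AGGTCA, the half-site of nuclear receptors, none of the 13 held it on either strand, against 14.0% of all windows. For GCGTG, the core of the aryl hydrocarbon receptor's element, 6 of 13 held it, against 28.2%. TATAAA was held by 2 of 13, against 12.4%. These shares were not tested, and a match describes the letters of the window, not a site in use.

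The other rises of the group were in 5 genes. Cyp2c65, an arachidonic acid epoxygenase, read from -2.98 to -2.60 in wild type and from -2.07 to -1.84 in the mutant, a rise of 0.84 ± 0.13 (SE, adjusted p = 0.00313, limma). Cyp4v3, the mouse counterpart of the fatty acid hydroxylase mutated in Bietti crystalline dystrophy, rose by 0.92 ± 0.25 (adjusted p = 0.0208), with mutant replicate 2 at -3.61 inside the wild-type range. Cyp2j6 and Cyp2j9, relatives of the arachidonic acid epoxygenases, rose by 0.91 ± 0.23 (adjusted p = 0.0171) and 0.76 ± 0.20 (adjusted p = 0.0194). Both were well above background on 3 wild-type arrays and all 4 mutant arrays, and under normexp their differences were -0.11 and -0.28. Cyp4x1, whose substrates are less settled, rose by 0.43 ± 0.13 (adjusted p = 0.0263). Without mutant replicate 1, Cyp2j6 and Cyp2j9 had adjusted p of 0.0501 and 0.0506. Cyp4v3 lost its call without any 1 of wild-type replicates 2 and 3 and mutant replicates 1, 3 and 4 (0.0513 to 0.0589), and Cyp4x1 without wild-type replicate 3 or any mutant replicate (0.0513 to 0.0796).

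Cyp4a14, a fatty acid hydroxylase and a known target of the receptor Ppara, was the only called fall of the fatty acid group. It read -1.92, -2.09, -2.24 and -2.46 in wild type and -3.08, -2.76, -2.41 and -2.70 in the mutant. One mutant array, replicate 3, overlapped the wild type. The fall was -0.56 ± 0.18 (SE, adjusted p = 0.0363, limma), and it stayed past the threshold only without wild-type replicate 4 or mutant replicate 3 (without the others, adjusted p from 0.0661 to 0.0914). Its chromosome 4 neighbours Cyp4a10 and Cyp4a12 differed by 0.47 ± 0.20 (adjusted p = 0.0891) and 0.23 ± 0.17 (adjusted p = 0.298). Cyp2u1, a hydroxylase of long-chain fatty acids, differed by -0.31 ± 0.12 (adjusted p = 0.0649); its wild-type values, -1.71 to -1.50, lay above its mutant values, -1.99 to -1.82, and with median scaling it passed as lower (-0.53, adjusted p = 0.00877). Cyp4b1, which oxidises fatty acids and foreign compounds, differed by -0.05 ± 0.23 (adjusted p = 0.891). Among Cyp2c genes, 11 on the array, 1 of 9 tested rose and none fell, where 22.2% and 13.1% of all genes did. At an unadjusted p under 0.05 in limma the Cyp2c counts were also 1 and 0. Cyp2c70, an enzyme of muricholic acid synthesis, differed by -0.20 ± 0.15 (adjusted p = 0.321).

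**Figure D2:**
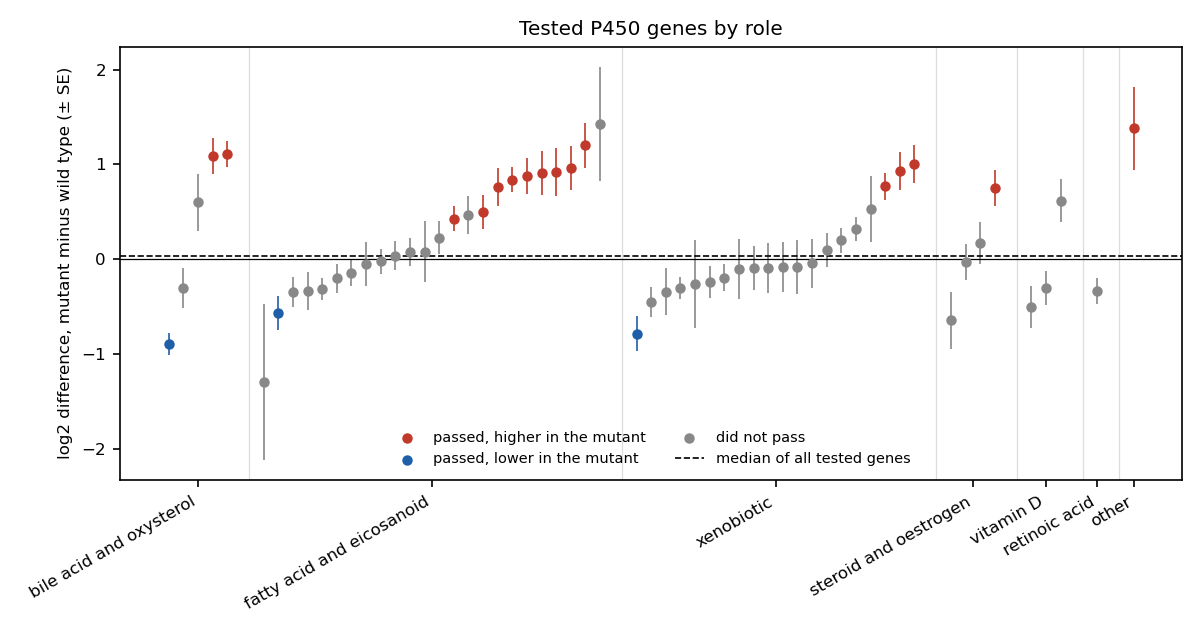
Difference of each of the 58 tested P450 genes, mutant minus wild type in log2 units (vertical axis, ± SE), grouped by role on the horizontal axis. Red points passed as higher (16), blue as lower (3) and grey did not pass (39); the dashed line is the median of all tested genes, 0.04.

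Of 24 genes of drug and foreign compound metabolism 20 were tested, and 3 rose, 1 fell and 16 did not pass, with a median of -0.08; of all genes 22.2% rose and 13.1% fell. Cyp2s1, an enzyme induced through the aryl hydrocarbon receptor, read -0.54, -0.64, -0.79 and -0.70 in wild type and 0.12, -0.13, 0.13 and 0.30 in the mutant. The groups were apart, and the rise of 0.77 ± 0.14 (SE, adjusted p = 0.00441, limma) was 0.75 under normexp (adjusted p = 0.00928). The rise rests on 1 probe, as the second Cyp2s1 probe was at the floor on every array. Cyp2g1, known from olfactory mucosa, rose by 0.93 ± 0.20 (adjusted p = 0.00851), from a range of -4.12 to -3.29 in wild type to -3.02 to -2.74 in the mutant. The second Cyp2g1 probe was well above background on no array. Cyp2d13 rose by 1.01 ± 0.20 (adjusted p = 0.00663), but was well above background on 1 of 4 wild-type arrays and turned to -0.26 under normexp. Cyp2d26 fell. It read 3.57, 3.38, 3.37 and 3.13 in wild type and 2.51, 2.95, 2.69 and 2.16 in the mutant, which did not overlap, a fall of -0.78 ± 0.18 (SE, adjusted p = 0.0128, limma), or 1.72-fold. All 5 Cyp2d genes of chromosome 15 were tested, of which 1 rose, 1 fell and 3 did not pass, against 22.2% and 13.1% of all genes. The rise was that of Cyp2d13, whose probe lies nearest to that of Cyp2d26. Cyp2d10 and Cyp2d9, with adjusted p of 0.055 and 0.0719, differed by -0.45 ± 0.16 and -0.30 ± 0.12. Cyp2d22 differed by -0.24 ± 0.17 (limma adjusted p = 0.285), and its other probes were higher in the mutant, as given below. For Cyp2d9 a second probe passed as lower (-0.46 ± 0.13, adjusted p = 0.0224, limma over all probes). It overlaps the first in mm7 (chr15:82540764-82540823 and chr15:82540797-82540856) and is not an independent reading. The second probe of Cyp2d10 differed by 0.15 ± 0.14 (adjusted p = 0.419). Cyp2a12, a liver steroid and drug hydroxylase, differed by -0.04 ± 0.26 (adjusted p = 0.922). Cyp3a13, a drug hydroxylase, was well above background on all 4 mutant arrays and no wild-type array, so it entered the test through the mutant arrays alone. With 3 wild-type arrays at the floor it differed by 0.32 ± 0.13 and did not pass (adjusted p = 0.0773, limma), and under normexp the difference was -0.46. No direction is given for it.

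Among the genes of steroid and oestrogen metabolism, 1 of 4 tested rose and none fell, where 22.2% and 13.1% of all genes did. Cyp11b2, the aldosterone synthase of the adrenal cortex, read -5.17, -5.43, -5.60 and -6.12 in wild type and -4.88, -4.76, -4.83 and -4.85 in the mutant. It was well above background on 2 wild-type and 4 mutant arrays, and 1 wild-type array sat at the floor. The rise was 0.75 ± 0.19 (SE, adjusted p = 0.0172, limma), and under normexp the difference was -0.37 (adjusted p = 0.186). Of the other adrenal markers listed, Akr1b7 and Mc2r rose, Cyp21a1 did not pass and Cyp11b1 was not on the array. Akr1b7 read -4.43 to -3.97 in wild type and -1.38, -3.03, -2.56 and -2.20 in the mutant. It was highest on mutant replicates 1 and 4, as was the epididymal marker Crisp1, and its tissue of origin was not tested. The sum of Akr1b7 and Mc2r ran from 0.331 to 0.571 in wild type and from 0.881 to 1.15 in the mutant. Their part in the Cyp11b2 result was not tested. Cyp19a1, the aromatase that makes oestrogen, differed by -0.03 ± 0.19 (adjusted p = 0.907), with wild-type values from -3.21 to -2.38 and mutant values from -2.86 to -2.65. Cyp21a1, a steroid hydroxylase of the adrenal, differed by 0.17 ± 0.22 (adjusted p = 0.55). Cyp1b1, which hydroxylates oestrogens, is described with the genes whose probes disagreed.

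No gene of vitamin D or retinoic acid metabolism passed limma's test after adjustment, where 22.2% of all genes rose and 13.1% fell. Of these roles 3 and 1 were tested. At an unadjusted p under 0.05 there were 1 rise and 1 fall among the 3 and a fall of the other. Cyp2r1, a vitamin D hydroxylase of liver and testis, differed by -0.50 ± 0.22 (SE, adjusted p = 0.0935, limma), and the groups overlapped. Cyp27b1, which makes the active hormone, differed by 0.62 ± 0.23 (adjusted p = 0.0558). Cyp24a1, which inactivates it, differed by -0.30 ± 0.18 (adjusted p = 0.193). Vdr, the receptor of the hormone, rose by 0.86 ± 0.16 (adjusted p = 0.00564). Cyp26a1, which breaks down retinoic acid, read from -2.27 to -2.11 in wild type and from -2.81 to -2.29 in the mutant, groups that did not overlap, and its difference of -0.33 ± 0.14 did not pass (adjusted p = 0.1). Outside these roles stood 1 gene, Cyp20a1, a P450 without a settled substrate. It read -6.12, -4.87, -4.58 and -3.96 in wild type and -3.55, -3.94, -3.83 and -2.68 in the mutant, so the highest wild-type array came close to the lowest mutant array without overlap. It rose by 1.38 ± 0.44 (SE, adjusted p = 0.0352, limma), with 2 wild-type arrays well above background. The call was lost without any 1 of wild-type replicates 2 and 3 and mutant replicates 1, 3 and 4 (adjusted p from 0.0553 to 0.0921), and the difference was -0.07 under normexp.

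**Figure D3:**
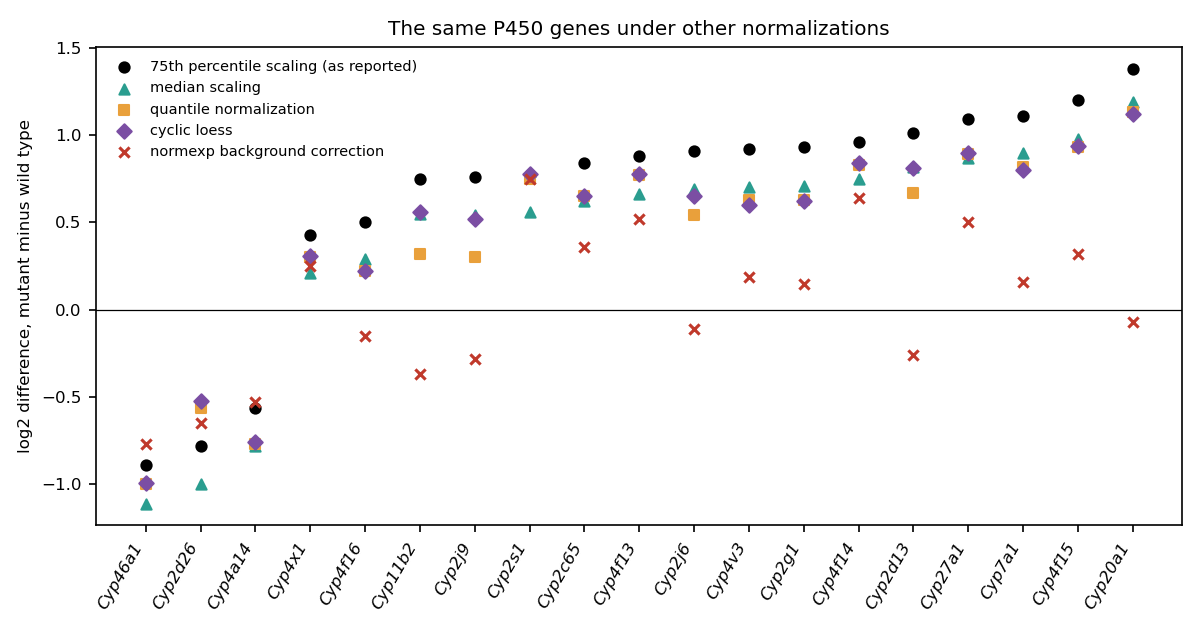
Difference, mutant minus wild type in log2 units (vertical axis), of the 19 P450 genes that passed, under the reported scaling (black) and 4 others. The 3 falls stay below the zero line under each, and 6 of the 16 rises lie below it under normexp (red crosses) and under no other.

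Probes of one gene did not always go the same way. For 15 genes 2 or more probes passed the background filter; in 9 of them all differences had 1 sign and in 6 they had both. No gene had probes that passed in opposite directions. Of 17 passing probes that did not represent their gene, 6 passed as higher and 1 as lower (21.2% and 10.8% of all passing probes did), which would have added 7 genes to the calls. Those of Cyp1b1 lie 5.57 kb apart on chromosome 17. The representing probe read 1.28, 1.62, 1.51 and 0.26 in wild type and 0.95, 0.65, 0.25 and 0.27 in the mutant, a difference of -0.64 ± 0.30 (adjusted p = 0.123, limma over all probes), in which wild-type replicate 4 sat with the mutants. The other read -3.13, -2.98, -3.18 and -2.85 in wild type and -2.06, -2.67, -2.19 and -1.79 in the mutant, without overlap, and passed as higher (0.86 ± 0.19, adjusted p = 0.0108). No direction is therefore given for Cyp1b1. For Cyp2d22 the representing probe differed by -0.24 ± 0.17 and the others by 0.79 ± 0.36 and 1.01 ± 0.19, of which the last passed (adjusted p = 0.00597). Both Cyp27b1 probes were higher in the mutant, and the second passed (1.25 ± 0.24, adjusted p = 0.00605). Second probes also passed as higher for Cyp2b9 (1.10 ± 0.29, adjusted p = 0.0205), Cyp2b10 (0.62 ± 0.20, adjusted p = 0.0423) and Cyp4a12 (0.71 ± 0.18, adjusted p = 0.0162), whose representing probes differed by 0.10, -0.09 and 0.23 and did not pass. The 6 genes with both signs were Cyp1b1, Cyp2b10, Cyp2d10, Cyp2d22, Cyp2j13 and Cyp39a1, whose second probe differed by 0.19 ± 0.22 (adjusted p = 0.504).

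**Figure D4:**
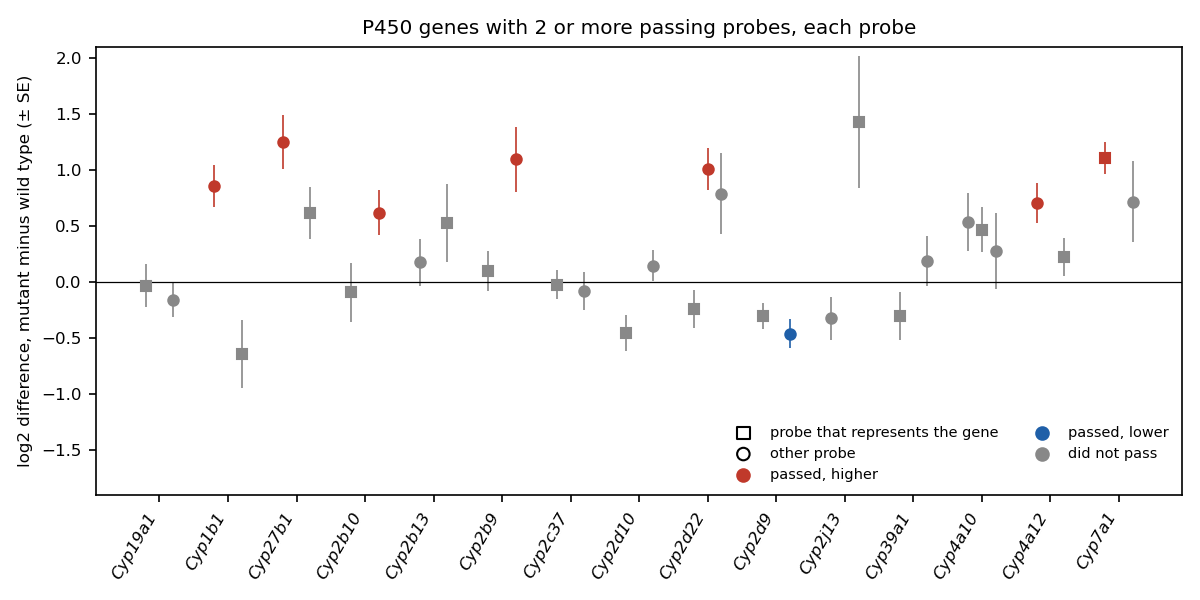
Difference, mutant minus wild type in log2 units (vertical axis, ± SE), of each passing probe of the 15 P450 genes that had 2 or more. Squares are the probes that represent their gene, circles the others, and colour marks those that passed in the limma fit over all probes; for Cyp1b1 the 2 probes lie on opposite sides of zero.

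Some P450 genes varied more between arrays of one genotype than between the genotypes, and were picked out with their values in view. Cyp2c55, an epoxygenase known from the gut, read 0.12 and 0.00 on wild-type replicates 2 and 3, and -3.28 and -3.50 on replicates 1 and 4. On the mutant arrays it read -2.26, -3.25, -3.22 and -3.08. The 2 wild-type arrays lay at least 4.78-fold above the highest of the other 6, and the genotype difference of -1.29 ± 0.82 did not pass (adjusted p = 0.233, limma); without these 2 arrays it was 0.44 (adjusted p = 0.316). By this gap Cyp2c55 ranked 2 of the 33718 passing probes, 24 of which stood 1 log2 unit or more apart in this way. The same 2 arrays were the highest for Cyp3a41, a steroid and drug hydroxylase, at -0.68 and -0.65 against -2.09 to -1.06 elsewhere (genotype difference -0.10 ± 0.32, limma adjusted p = 0.83), and for Cyp3a16, at -2.58 and -2.75 against -3.86 to -3.07. Both probes of Cyp3a44, which in mm7 lie on chromosome 5 with the other Cyp3a genes, were well above background on these 2 arrays and on no other. The second of them read -3.63 and -3.76 there and -6.12 to -5.53 on the other arrays. They lie at chr5:144587558-144587617 and chr5:144587795-144587854, beside the Cyp3a41 probe at chr5:144587472-144587531 and on its strand. Cyp3a41 and Cyp3a44 are therefore not counted as independent readings of this pattern. Not all Cyp3a genes shared this: Cyp3a11 read -4.54 on wild-type replicate 2, its lowest array, and Cyp3a13 was at the floor on both arrays. Of Cyp3a25, 1 probe stood 0.20 above the other 6 arrays on these 2, and the second was well above background on none. Wild-type replicates 2 and 3 were also the closest pair of their genotype over all passing probes (r = 0.9945, SD of log2 differences 0.304, against 0.548 or more for the other wild-type pairs). Mutant replicates 2 and 3 were the closest of theirs, at an SD of 0.266. With replicates 2 and 3 of each genotype averaged to 1 array, 11 P450 genes rose and 2 fell, against 13.9% and 3.98% of all genes, and without wild-type replicates 2 and 3 the counts were 9 and 1, against 12.1% and 2.33%; both settings were chosen after the data were seen.

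Cyp2j13 read -2.06 and -3.14 on mutant replicates 1 and 4 and from -5.55 to -4.71 on the other 6 arrays, a difference of 1.43 ± 0.60 that did not pass (adjusted p = 0.0869, limma). Of the tested probes this rests on 1. Another, well above background on all 8 arrays, differed by -0.32 ± 0.19 (adjusted p = 0.216, limma over all probes), with mutant replicate 1 its lowest array at -5.24. The untested probe shown above read -6.12 to -5.81 in wild type and -4.67, -5.46, -5.05 and -4.93 in the mutant. These values are near the floor, and the highest were on mutant replicates 1 and 4. The same 2 arrays held the epididymal marker Crisp1 at 2.50 and 2.80, against -2.40 and -4.20 on the other mutant arrays and -5.56 to -4.98 in wild type. The 8 epididymal markers together ran from 0.666 to 0.916 in wild type and from 1.31 to 31.1 in the mutant, with 3 of 4 tested genes higher and Lcn8 at the floor on all arrays, and their part in the Cyp2j13 values was not tested. Without mutant replicates 1 and 4 the Cyp2j13 difference was 0.25 (adjusted p = 0.546). The same omission left 3 P450 rises, Cyp7a1, Cyp2c65 and Cyp2d13, and 1 fall, Cyp46a1, past the threshold, where 4.63% and 0.96% of all genes rose and fell; all 16 rises stayed above zero and all 3 falls below it. Cyp2e1, the ethanol-oxidising enzyme, was well above background only on replicate 4 of each genotype, at -3.72 and -3.54, and was not tested. The adipocyte markers Fabp4, Cidec, Plin1 and Lep were also highest on replicate 4 of each genotype, and Adipoq was lowest there. Their part in the Cyp2e1 values was not tested.

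**Figure D5:**
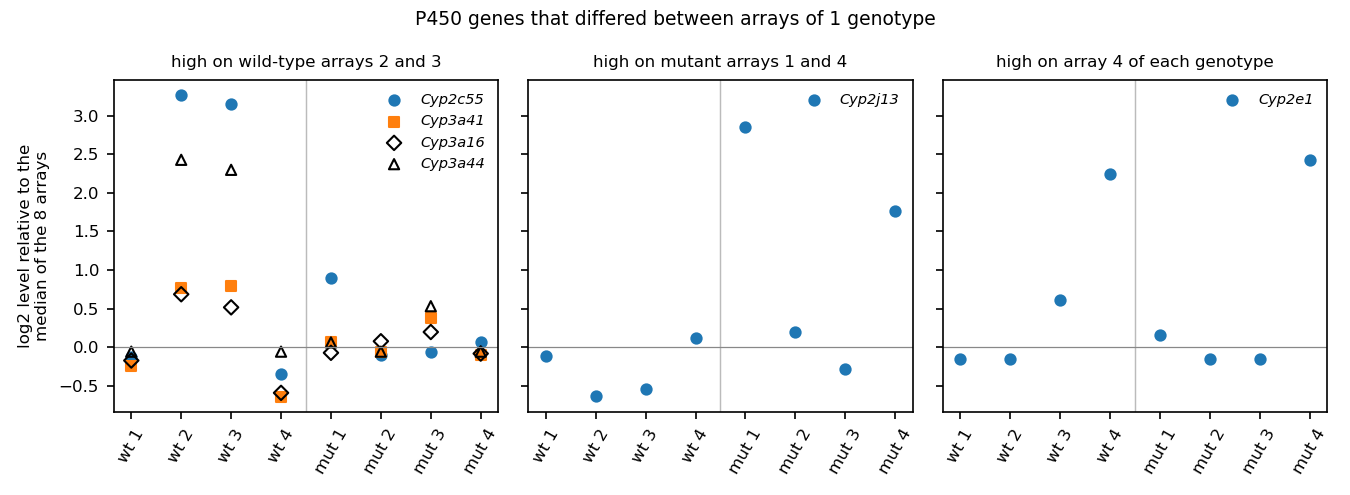
Levels of P450 genes on each array (horizontal axis) as log2 relative to the median of the 8 arrays (vertical axis), 1 panel for each pattern. Cyp2c55, Cyp3a41, Cyp3a16 and Cyp3a44 are high on wild-type replicates 2 and 3, 1 probe of Cyp2j13 on mutant replicates 1 and 4, and Cyp2e1 on replicate 4 of both genotypes. The probes of Cyp3a41 and Cyp3a44 lie beside each other in mm7 and are not independent readings.

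The 9 genes without a passing probe were Cyp1a1, Cyp2a5, Cyp2c38, Cyp2c54, Cyp2e1, Cyp2j11, Cyp2j5, Cyp3a44 and Cyp8b1. Over all 98 member probes 58 were well above background on all 8 arrays and 14 on none. Cyp1a1, the classical target of the aryl hydrocarbon receptor, was at the floor on every array, as were both probes of Cyp2j5. Cross-hybridisation between relatives was looked for in the probe sequences: only Cyp2a4 and Cyp2a5 had probes that shared a run of 20 bases or more, the longest of 28 bases. Matches of a probe to transcripts of other genes were not searched.

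Genes that supply P450 enzymes with electrons and haem, or that regulate them, were taken from a list of 46 names. Of 45 tested, 17 rose (22.2% of all genes did) and 2 fell (13.1%), with a median of 0.37. Por, the electron donor of the microsomal enzymes, read from 1.68 to 2.29 in wild type and from 1.76 to 2.30 in the mutant and differed by 0.10 ± 0.18 (SE, adjusted p = 0.684, limma). Fdxr, the donor's reductase in mitochondria, rose by 0.89 ± 0.19 (adjusted p = 0.00923), from 2.08 to 2.31 in wild type to 2.67 to 3.59 in the mutant. Cyb5a, the cytochrome that assists P450 reactions, rose by 0.78 ± 0.15 (adjusted p = 0.00556), Cyb5b of the outer mitochondrial membrane by 0.51 ± 0.15 (adjusted p = 0.0274) and the reductase Cyb5r1 by 1.21 ± 0.20 (adjusted p = 0.0034). Pgrmc1, a haem-binding partner of P450 enzymes, rose by 0.89 ± 0.21 (adjusted p = 0.0134), and its relative Pgrmc2 fell by 0.43 (SE 0.15, adjusted p = 0.0492). A different probe of Cyb5b, the first by name, read -0.19 (adjusted p = 0.326). In this subset 5 of 11 rose and 1 fell, where 22.2% and 13.1% of all genes did.

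Of 13 genes of haem synthesis and breakdown 6 rose and none fell in limma's test, against the same shares of all genes (7 and 0 at an unadjusted p under 0.05). Among the synthesis enzymes that rose were Alad (0.68 ± 0.20, SE) and Ppox (0.69 ± 0.22), and among the breakdown enzymes the haem oxygenase Hmox1 (0.63 ± 0.14) and the biliverdin reductases Blvra (0.53 ± 0.14) and Blvrb (0.84 ± 0.20), with limma adjusted p from 0.0105 to 0.0385. Of the epoxide hydrolases, which open the epoxides that P450 enzymes make, Ephx2 rose by 0.96 ± 0.16 (adjusted p = 0.0036) and the other did not pass. Of 19 regulators, receptors and related factors, 5 rose and 1 fell, against 22.2% and 13.1%. Besides Vdr these were Nfe2l2 (0.67 ± 0.15, adjusted p = 0.00984), the aryl hydrocarbon receptor Ahr (0.67 ± 0.17, adjusted p = 0.0164), its repressor Ahrr (0.64 ± 0.14, adjusted p = 0.00887) and Ppara (0.39 ± 0.13, adjusted p = 0.041), while Rxra, with which Vdr and Ppara pair on DNA, fell by 0.58 (SE 0.19, adjusted p = 0.041). Under normexp Ahr and Ahrr were at -0.14 and -0.37 and Ppara at 0.01. With median scaling 11 of the 45 genes rose and 6 fell, where 14.0% and 28.4% of all genes did. Without mutant replicate 3 the counts were 10 and 0 (15.5% and 6.6% of all genes), and without wild-type replicate 4 the falls were 4 (15.6%).

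The 4 excluded P450 genes were set beside the members for comparison. Cyp26b1, the retinoic acid hydroxylase of somatic cells of the testis, rose by 0.69 ± 0.20 (SE, adjusted p = 0.0241, limma), against -0.33 ± 0.14 for Cyp26a1; the difference between the 2 was not tested. Cyp51, the sterol demethylase, fell by 0.64 (SE 0.16, adjusted p = 0.016). Cyp11a1 and Cyp17a1, the androgen-making enzymes of Leydig cells, differed by 0.90 ± 0.35 (adjusted p = 0.0698) and 0.76 ± 0.29 (adjusted p = 0.0659) and did not pass.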

How the data were processed

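Total RNA of whole testicular cells of wild-type and Vrk1 mutant mice was labelled with Cy3, per the labels' protocols. It was measured on 8 single-colour Agilent arrays, 4 of each genotype. Per the submitters' processing notes, Agilent Feature Extraction 9.5.3.1 was used to read the scans. The deposited intensity values are, per the file headers, the processed signal (background-subtracted and detrended within an array, not scaled between arrays) and the mean and background signals. The value table that the authors deposited held the same 45018 intensities on a linear scale. Here the processed signal was divided by the array's 75th percentile, raised to a floor of 0.01437 of it, which negative signals required, and converted to log2. Outlier spots were left out and repeat spots averaged. A probe was kept if it lay well above background on 4 or more of the 8 arrays and had 3 or more values in each group (33718), and the brightest represented its gene (23962 genes). P450 genes carry the names in the array files; 5 genes whose current symbol is a P450 but whose name on the array is not were left out. The test was limma's (version 3.58.1, R 4.3.3) with lmFit and eBayes, genotype alone in the model, two-sided, adjusted over all genes by Benjamini-Hochberg at 0.05, and the procedure was tested on simulated data. The second probes were read from a fit over all 33718 probes. Named were the members that passed, the 10 of highest mean level, those well above background in 1 genotype only, a preset list, and of the partner genes Por and those that passed. Other members were named after their values were seen. Members, lists and rules were chosen with earlier results of these data known. Of the 46 partner names 1 was not among the array's names. The number of arrays limits the precision, and p-values measure the spread between these arrays. Alternatives were other scalings, normexp background correction, other filters, probes and floors, a replicate block and leaving out arrays. Coordinates of probes are mm7, as in the array files, and promoters are RefSeq's of GRCm38.p6. Values of one partner gene are not reported here.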

Additional observations from a re-analysis of the deposited data

Results flagged for a closer look

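Of 102 groups of 4 arrays examined for P450 genes named here, 5 held an array that stood apart from the other 3 by more than Dixon's critical value for 4 values, a limit that chance passes in about 1 of 20 groups. Cyp2e1 read -3.54 on mutant replicate 4 and from -6.12 to -5.81 on the other mutant arrays. Cyp2c55 read -2.26 on mutant replicate 1 and from -3.25 to -3.08 on the others. Cyp2j9 read -5.60 on wild-type replicate 1, against -4.81 to -4.67 on the other wild-type arrays. Cyp3a13 read -5.86 on wild-type replicate 4, with the others at the floor of -6.12. Cyp26a1 read -2.27 on wild-type replicate 3 and from -2.12 to -2.11 on the others.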

How the results depend on the processing

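Counts of P450 genes that rose and fell, 16 and 3 as reported, were 11 and 15 with median scaling, 8 and 9 with quantile normalization, 8 and 8 with cyclic loess, 14 and 8 with spike-in scaling, and 2 and 7 with normexp. They ran from 10 to 16 and from 2 to 7 when each array was left out in turn, were 3 and 1 without mutant replicates 1 and 4, and 9 and 1 without wild-type replicates 2 and 3. The median P450 difference, 0.01 as reported, was -0.21 with median scaling, -0.21 with quantile normalization, -0.15 with cyclic loess, -0.14 with spike-in scaling, -0.26 with normexp, -0.01 without a filter, -0.06 with the filter at all 8 arrays and 0.15 over all probes. It was 0.13 without mutant replicates 1 and 4, 0.22 without wild-type replicates 2 and 3, 0.09 with replicates 2 and 3 averaged, and -0.03 to 0.13 with each array left out. Partner genes that rose and fell, 17 and 2, were 11 and 6 with median scaling, 11 and 5 with spike-in scaling, 1 and 0 without mutant replicates 1 and 4, 4 and 0 without wild-type replicates 2 and 3, and 10 and 0 with replicates 2 and 3 averaged. Falls were 1 with quantile normalization, normexp, the lower floor or the first probe by name and 0 with cyclic loess, and leaving out each array gave 10 to 18 rises and 0 to 4 falls. Over all genes 5321 rose and 3129 fell. The counts were 3363 and 6816 with median scaling, 1109 and 230 without mutant replicates 1 and 4, 2904 and 558 without wild-type replicates 2 and 3, and 3335 and 952 with replicates 2 and 3 averaged. Rises were 3463 with quantile normalization and 1878 with normexp, falls 4847 with spike-in scaling, and leaving out each array gave 3714 to 5395 and 1582 to 3742, with falls at 1637 and 1593 when the array left out was replicate 2 or 3 of the wild type, and at 1641, 1582 and 1793 when it was number 1, 3 or 4 of the mutants. Among genes that passed, directions that turned with normexp were Ahr (-0.14), Ahrr (-0.37), Cyp11b2 (-0.37), Cyp20a1 (-0.07), Cyp2d13 (-0.26), Cyp2j6 (-0.11), Cyp2j9 (-0.28) and Cyp4f16 (-0.15). Of named genes that passed in neither fit, Cyp3a13 (-0.46), Cyp7b1 (-0.08), Cyp21a1 (-0.25), Cyp4a10 (-0.05), Cyp2b9 (-0.30) and Cyp2a12 (0.03) turned with it too. With the first probe by name Cyb5b (-0.19), Cyp1b1 (0.86) and Cyp2j13 (-0.32) turned. The cause of the single changes was not tested, and neither was the part of the normexp offset in them. Where arrays were left out, the number of arrays was also smaller. With the replicate number as a block 19 P450 genes rose and 5 fell, against 27.6% and 19.5% of all genes. Cyp7b1 (adjusted p = 0.0197), Cyp27b1 (0.0359) and Cyp2j13 (0.0197) then passed as higher and Cyp1b1 (0.0421) and Cyp2d10 (0.0344) as lower, as did Cyp11a1 (0.00298) and Cyp17a1 (0.0141) as higher, in limma's test. Same-numbered arrays deviated together with correlations of 0.28, 0.24, 0.081 and 0.59, and each mutant array correlated best with its own number, a hint from the data and not from the design. The labels do not say that the numbers mark a pairing. Of 1625 comparisons of single named genes with other settings 1287 kept direction and call, and 47 changed sign with no call in either fit. Dim probes limit the P450 results: 11 of the 58 tested genes were not well above background on every wild-type array.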
